A study of Mus musculus with 2 samples.

Results

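Cathepsins are the proteases of the lysosome, and 8 of them were followed here with legumain (Lgmn), a lysosomal protease that cleaves after asparagine, and cystatin C (Cst3), a secreted inhibitor of cysteine cathepsins. The 10 genes were chosen by name with the measured log2 ratios of these arrays already known, and their probes were all the non-control probes whose RefSeq accession belongs to one of them. They gave 13 of 41174 probes and 10 of 18952 named genes. The values below therefore describe the members and test nothing.

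Both genotypes were FVB/N mice aged 6 months, and the tissue was the dorsolateral prostate. RNA of 6 wild-type animals formed a pool, RNA of 6 ARR2PB-miR32 transgenic animals formed another, and both pools were applied to each of 2 arrays on 1 slide, the dyes being swapped on array 2. The ARR2PB promoter derives from probasin and is driven by androgen in prostate epithelium, and here it drove the microRNA miR-32. The wild-type pool carried Cy5 on array 1 and Cy3 on array 2. Each genotype was 1 pool, so the arrays repeat the same RNA, each ± below is the SD over 2 arrays, and no test of genotype was possible. The comparison asks how lysosomal protease transcripts differ in a prostate that carries the transgene.

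Cathepsins B, C, H, K, L, S and Z are cysteine proteases and cathepsin D is an aspartic protease. Most are made in nearly all cells as inactive precursors, sorted to lysosomes, and used there to break down proteins. Cathepsin S differs in that antigen-presenting cells such as macrophages, dendritic cells and B cells are rich in it, where it trims the invariant chain Cd74 from MHC class II molecules. Transcription of many lysosomal genes is driven by TFEB through CLEAR elements.

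The transgene's product and the promoters of Ctss and Ctsd are shown first. The 5p arm of mouse miR-32 in RefSeq (GRCm38.p6, chr4:56895272-56895293, minus strand) is given with its seed, bases 2 to 8, in capitals.
mmu-miR-32-5p: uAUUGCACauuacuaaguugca

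The promoter stretch of Ctss (RefSeq, GRCm38.p6, chr3:95526636-95526795, plus strand) runs from base -150 to base 10 around the annotated start. Capitals mark a match to GAGGAAG, a site of the kind bound by PU.1 in myeloid cells, on the other strand from base -1 to 6.
Ctss: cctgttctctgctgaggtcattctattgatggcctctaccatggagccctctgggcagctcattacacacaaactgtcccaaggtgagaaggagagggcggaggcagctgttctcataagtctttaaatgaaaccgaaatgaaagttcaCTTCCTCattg

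The promoter stretch of Ctsd (RefSeq, GRCm38.p6, chr7:142387828-142388077, minus strand) covers the 250 bases before its start and is shown as the contrasting gene of broad expression. Capitals mark matches to TCACGTG, a form of the CLEAR element, which begin at bases -245, -99 and -98, the last pair overlapping on opposite strands.
Ctsd: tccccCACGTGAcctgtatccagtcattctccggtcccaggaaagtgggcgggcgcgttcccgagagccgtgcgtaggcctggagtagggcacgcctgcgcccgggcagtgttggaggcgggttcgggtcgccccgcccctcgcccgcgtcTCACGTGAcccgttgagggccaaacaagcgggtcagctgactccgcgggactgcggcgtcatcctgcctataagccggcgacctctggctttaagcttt

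RefSeq promoters of 300 bases were matched for 8 of the 10 members, those other than Ctsb and Ctsh, and searched on both strands. GAGGAAG was found for 3 of these 8 genes (Ctss, Ctsc and Ctsk), against 13.6% of all 32851 promoters. CACGTG, the core shared with the longer TCACGTG, was found for 3 (Ctsd, Ctsl and 1 of the promoters of Lgmn), against 7.15%, and TCACGTG itself for 2 (Ctsd and Lgmn), against 3.77%. A match describes these letters only.

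Ctss was lower in the transgenic pool, and it was the only one of the detected members to reach 1.5-fold with the same sign on both arrays. Its log2 ratio of transgenic over wild type was -1.08 on array 1 and -1.25 on array 2, a mean of -1.17 ± 0.12, or 2.25-fold lower, with the transgenic signal well above background on array 1 only. Ctss was thus detected through the wild-type pool, where it is high. Of the 10 members, 9 were detected, meaning that the scanner software called the probe well above background in the same pool on both arrays. By the 1.5-fold rule 1 of the 9 was lower, 0 were higher and 8 were neither, beside 1.3% of 10434 detected genes called lower and 0.91% called higher. At 2-fold on each array Ctss again was the 1 member called lower, where 0.355% of detected genes were lower and 0.24% higher.

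**Figure D1:**
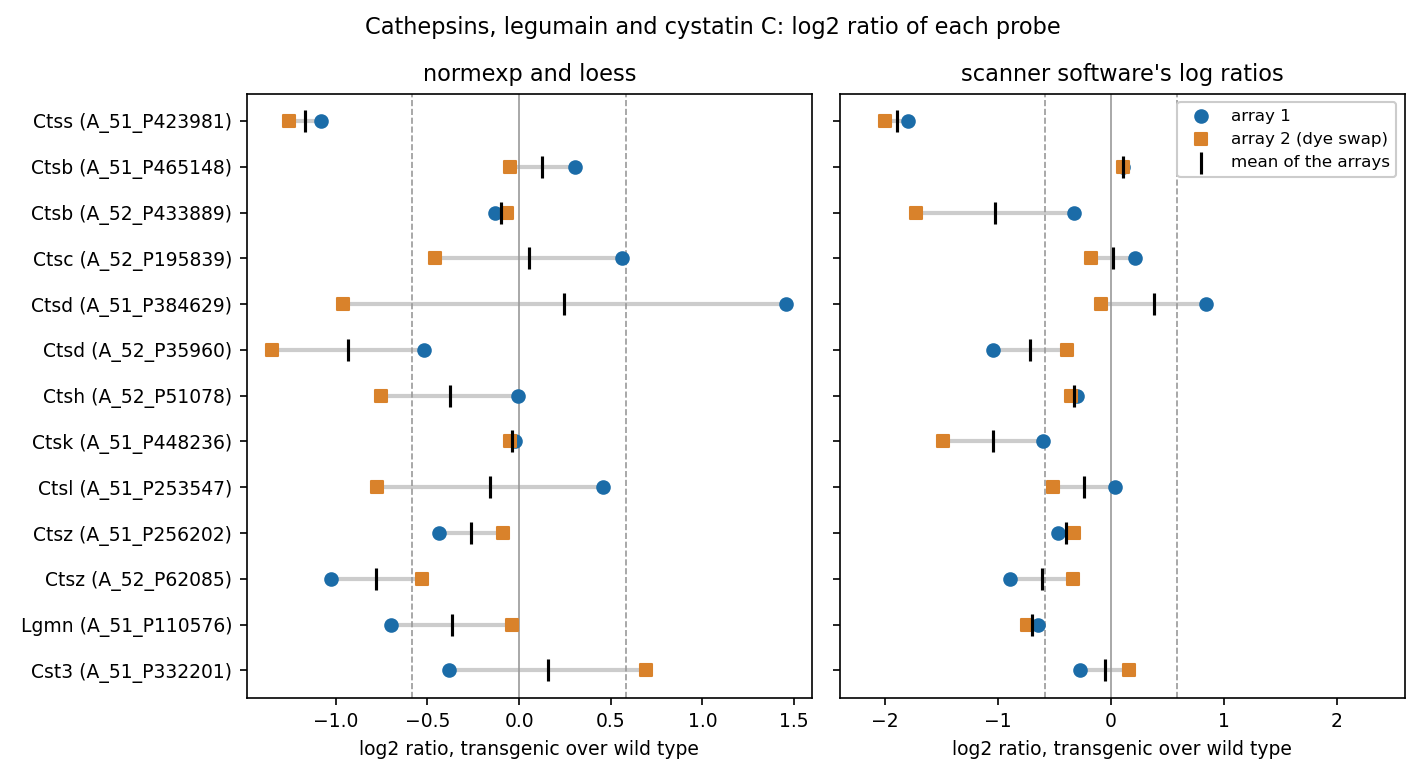
Log2 ratio of transgenic over wild type (x axis) for each of the 13 probes of the members (rows), on array 1 (circles) and array 2 (squares), with their mean (bar) and dashed lines at 1.5-fold. Left, after normexp background correction and loess; right, the log ratios computed by the scanner software. Ctss is the only detected member beyond the left dashed line on each array in the left panel, at -1.08 and -1.25, while Ctsd spans from 1.46 to -0.96.

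The spot signals behind the Ctss ratio were as follows. After subtraction of the local background, the wild-type pool gave intensities of 472 in Cy5 on array 1 and 582 in Cy3 on array 2. The transgenic pool gave 150 in Cy3 on array 1 and 18.5 in Cy5 on array 2. Cy5 of array 2 was weak for all probes, with a median net intensity of 10 against 26.5 for Cy3 on the same array. For Ctss the wild-type signal was well above background each time, but the transgenic signal on array 1 only, so the size of the difference on array 2 is uncertain. On the normalised log2 intensity scale, Ctss was at 8.62 and 8.82 in the wild-type pool and at 7.54 and 7.56 in the transgenic pool. The value of 7.56 comes from the array 2 signal that was not well above background.

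**Figure D2:**
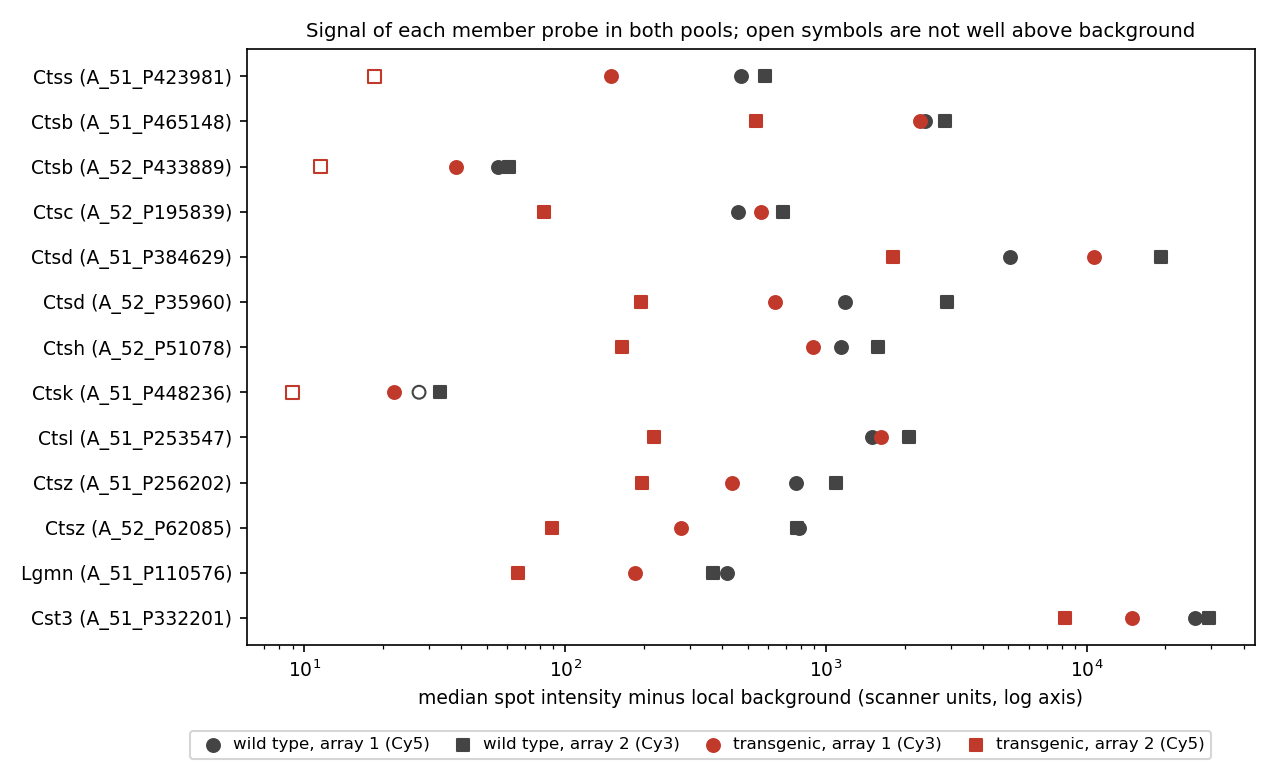
Median spot intensity minus local background (x axis, log scale, scanner units) of each member probe (rows) in the wild-type pool (grey) and the transgenic pool (red), on array 1 (circles) and array 2 (squares). Open symbols were not well above background, and rows cannot be set against each other because probes differ in brightness. For 13 of the 13 probes the lowest of the 4 signals is that of the transgenic pool in Cy5 of array 2. On array 1 Ctss was at 150 against 472.

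Repeated spots show the noise within an array, and none of the spread between animals. Among probes printed 10 times and within 1 log2 unit of Ctss in brightness, the median SD of the log2 ratio over spots was 0.22 on array 1 (67 probes) and 0.35 on array 2 (56 probes), and the largest were 0.46 and 0.61. Ctss itself was printed once. By the scanner software's ratios Ctss stood at -1.79 and -2.00, a mean of -1.90 ± 0.15.

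The cathepsins of broad expression gave ratios that changed with the array. Ctsd, the aspartic protease, was at 1.46 on array 1 and -0.96 on array 2 by its brighter probe, a mean of 0.25 ± 1.71. The wild-type pool alone gave 11.77 and 13.37 for this probe on the normalised log2 scale, and the transgenic pool 13.23 and 12.40, so that it was brighter in Cy3 whichever pool carried that dye. Ctsd was the 1 member that followed the dye by 1.5-fold on each array, as did 2.7% of detected genes that were brighter in Cy3. Its second probe gave -0.52 and -1.35, a mean of -0.93 ± 0.58, which was below 0 on each array but short of 1.5-fold on array 1. The probes of Ctsd thus differed in sign, and no direction can be given for this gene.

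Ctsb, an endopeptidase that also removes dipeptides from the ends of proteins, was at 0.30 and -0.05, a mean of 0.13 ± 0.25. Its dimmer probe was at -0.13 and -0.07, and its transgenic signal was well above background on array 1 only. After loess both Ctsb probes stayed within 1.5-fold on each array. By scanner ratios the brighter probe was at 0.11 and 0.10, the closest values on the 2 arrays among the brightest probes of the members. The dimmer probe was at -0.33 and -1.72 by scanner ratios.

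Ctsl, an endopeptidase of lysosomal protein breakdown, was at 0.46 and -0.77 (mean -0.16 ± 0.87). Ctsh, an aminopeptidase, was at -0.01 and -0.75 (mean -0.38 ± 0.53). These genes lay lower on array 2 than on array 1, and neither reached 1.5-fold on array 1. Scanner ratios put Ctsh at -0.30 and -0.35 and Ctsl at 0.03 and -0.51.

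Ctsz, a carboxypeptidase, was below 0 on each array by each of its probes. The brighter probe was at -0.44 and -0.09, a mean of -0.26 ± 0.25. The other was at -1.03 and -0.53, a mean of -0.78 ± 0.35, and fell just short of 1.5-fold (0.585 in log2) on array 2. Both probes were well above background in each pool on each array.

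Ctsc, a dipeptidyl peptidase that activates the granule proteases of immune cells, was at 0.56 and -0.46, a mean of 0.05 ± 0.72. It had opposite signs on the 2 arrays. Ctsk, the collagen-degrading cathepsin of osteoclasts, was the 1 member not detected: its probe was well above background only in Cy3, in the transgenic pool on array 1 and in the wild-type pool on array 2. Its net intensities of 27.5 and 33 in the wild-type pool and 22 and 9 in the transgenic pool give no usable ratio.

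Legumain, which also processes the precursors of cathepsins, depended on the normalization. After loess Lgmn was at -0.70 on array 1 and -0.04 on array 2, a mean of -0.37 ± 0.47, and was not called. By scanner ratios it was at -0.65 and -0.74, a mean of -0.70 ± 0.07 or 1.62-fold lower. That is past the rule on each array, where 6.02% of detected genes were called lower and 2.37% higher. The authors' deposited table gave -0.65 and -0.77 for it, but that table equals the scanner ratios in scale and direction and is not separate support. Lgmn was also past the rule with median centring, under which 5.31% of detected genes were called lower and 0.0192% higher.

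Cst3, the inhibitor, was at -0.38 and 0.69, a mean of 0.15 ± 0.76, with opposite signs on the 2 arrays. Its net intensities were 25927 and 29368.5 in the wild-type pool and 14873 and 8234.5 in the transgenic pool, none of them saturated. Scanner ratios gave -0.27 and 0.16. No difference between the pools beyond the spread of the arrays was seen for Cst3.

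In order of mean log2 ratio, by the brightest probe of each, the detected members ran Ctss, Ctsh, Lgmn, Ctsz, Ctsl, Ctsc, Ctsb, Cst3 and Ctsd. The step from Ctss to Ctsh was 0.79, larger than the greater SD of the pair (0.53). Every later step, 0.01 to 0.21, was within the greater SD of its pair. The second probes of Ctsd (-0.93 ± 0.58) and Ctsz (-0.78 ± 0.35) lay between Ctss and Ctsh, so the first step holds for brightest probes only. Of the 9 detected members 5 had opposite signs on the arrays after loess and 4 (Ctss, Ctsh, Lgmn and Ctsz) were below 0 on each. The median of the 9 was -0.16, and -0.05 for the 8 other than Ctss, beside -0.06 over all detected genes. Median centring put the middle of all detected genes at -0.57, and under it the 9 had a median of -1.01 and the 8 a median of -0.98.

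Ctss was set against the cathepsins of broad expression, Ctsb, Ctsd, Ctsh, Ctsl and Ctsz, as a difference of log2 ratios and not of levels. On array 1 the median of these 5 was 0.30 and Ctss lay 1.38 below it (difference -1.38). On array 2 their median was -0.75 and the difference was -0.50, from a Ctss transgenic signal that was not well above background. The mean difference was -0.94 ± 0.62, a ratio 1.92-fold lower for Ctss than for the middle of the broad cathepsins. By the brightest probe of each gene, Ctss lay below the other 8 detected members on each array, after loess and by scanner ratios alike. The second probe of Ctsd, at -1.35 after loess, lay below Ctss (-1.25) on array 2. By brightest probes the gap to the lowest broad cathepsin was -0.64 on array 1 (Ctsz) and -0.29 on array 2 (Ctsd). The latter is smaller in size than 0.35, the median SD on array 2 over repeated spots of a probe near Ctss in brightness. That SD does not measure the spread of a difference between probes, and the Ctsd probe was much brighter than that of Ctss. Whether the gap on array 2 exceeds the noise was not tested.

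**Figure D3:**
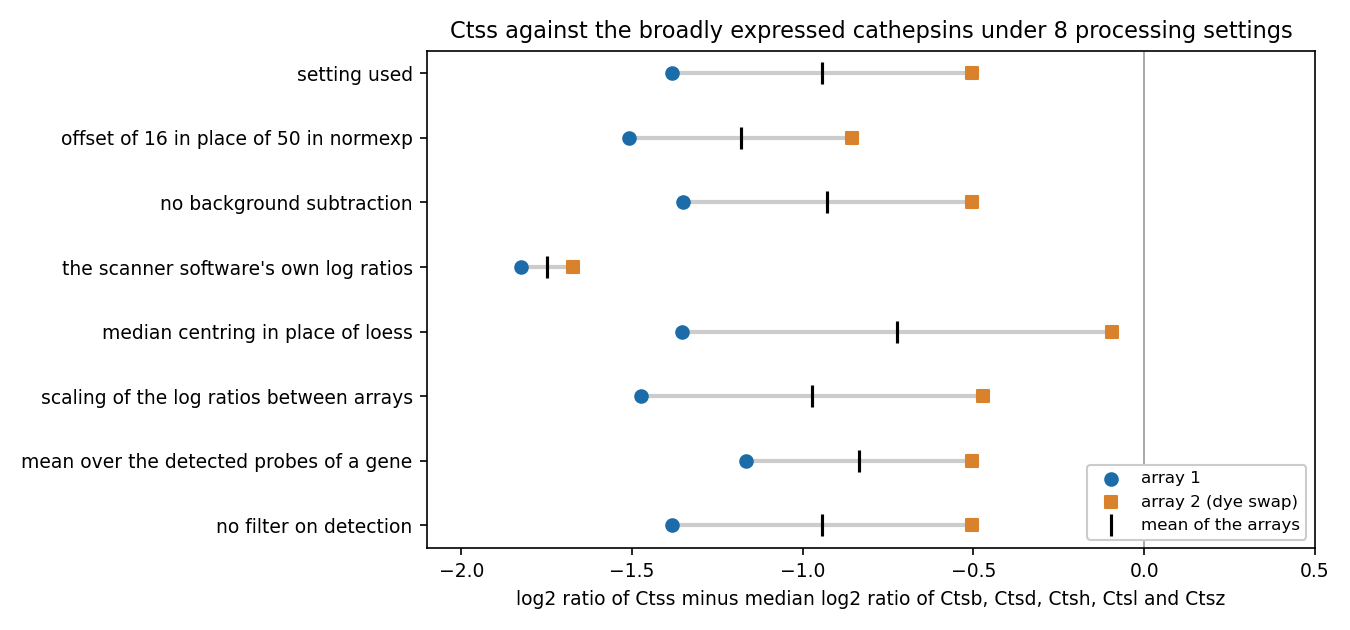
Log2 ratio of Ctss minus the median log2 ratio of Ctsb, Ctsd, Ctsh, Ctsl and Ctsz (x axis) on array 1 (circles), array 2 (squares) and as their mean (bars), under 8 processing settings (rows). Every point lies below 0, from -1.83 on array 1 by scanner ratios to -0.09 on array 2 with median centring. Each array 2 point rests on a Ctss transgenic signal that was not well above background. Settings in which Ctss was absent have no row, and the row without a detection filter repeats the setting used. The rows are thus not separate support.

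Scanner ratios gave close values for this contrast, -1.83 and -1.67, a mean of -1.75 ± 0.11. With median centring it was -1.35 on array 1 and -0.09 on array 2, where Ctss no longer lay below every broad cathepsin. Across all detected genes the log2 ratios of the arrays were not correlated after loess (Pearson's r = -0.03, Spearman's rho = -0.12) and were weakly so with the scanner software's values (r = 0.27, rho = 0.25). These are descriptions across genes, which share the arrays and are not replicates.

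The remaining genes of the lysosomal pathway were mostly neither higher nor lower. Of 119 listed genes outside the members 114 were on the array and 82 were detected. By the 1.5-fold rule 3 were lower, 0 higher and 79 neither, with 3.66% lower beside 1.3% of all detected genes. A mean below 0 was found for 64 of the 82 (median -0.17), beside 59.4% of all detected genes (median -0.06). By scanner ratios 10 were lower and 0 higher, beside 6.02% and 2.37% of all detected genes.

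Among other cathepsins 4 of 15 on the array were detected and 0 passed the rule, with a median of -0.48. Ctsf, a cysteine cathepsin, was at 0.01 and -1.23, and Ctso at -0.37 and -0.85. Ctsa, the protective protein of lysosomal glycosidases, was at -0.53 and -0.16, and its second probe at 0.25 and -1.04. Ctsw, found in cytotoxic lymphocytes, was at -0.11 and 0.03, but by scanner ratios at -1.20 and -1.52. By those ratios Ctsw was the 1 of these 4 genes called lower, beside 6.02% of all detected genes. The transgenic signals of Ctsf, Ctso and Ctsw were well above background on 1 array only, so the sizes of their ratios are uncertain. Of 5 further lysosomal peptidases 0 passed the rule, with a median of -0.27. The carboxypeptidases Scpep1 and Prcp were at -0.28 ± 0.47 and 0.14 ± 0.40.

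Of 22 other cystatins and cysteine protease inhibitors on the array 7 were detected. By the rule 1 was lower and 6 were neither, beside 1.3% of all detected genes lower. All 7 had means below 0, beside 59.4% of all detected genes, and the median of the 7 was -0.40. Csta1, a stefin that inhibits cathepsins inside cells, was lower at -0.97 and -0.76 (mean -0.86 ± 0.15). Its second probe was at -0.38 and -0.49, short of the rule. The related Stfa1 was at -0.75 and -0.38, and Ctla2a, an inhibitor that resembles the propeptide of cathepsins, at 0.02 and -1.37. The transgenic signal of Csta1 and Stfa1 was well above background on only 1 array, and stefins of this group are near-identical copies that probes may not separate.

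Of 33 detected lysosomal hydrolases and cofactors 1 was lower and 32 neither, beside 1.3% of all detected genes lower. The median was -0.21. Psap, the precursor of the saposins that help degrade sphingolipids, was lower at -0.75 and -0.79 (mean -0.77 ± 0.03), and its second probe was at -1.22 and -0.51. Ppt1, a thioesterase, had the highest mean of this list at 0.70 ± 0.21 and missed the rule on array 1 (0.55). Glb1, the lysosomal galactosidase, was at 0.19 and -1.89, and its second probe had a mean of 0.25.

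Among 25 detected genes of the lysosomal membrane and its proton pump 1 was lower and 24 neither, beside 1.3% of all detected genes lower. The median was -0.10. Atp6v0c, the proton-channel subunit of the V-ATPase, was lower at -0.95 and -0.67 (mean -0.81 ± 0.20). The membrane proteins Lamp1 and Lamp2 were at -0.09 ± 0.50 and -0.09 ± 0.19. Of 8 detected sorting and TFEB family genes 0 passed the rule, with a median of -0.11. Igf2r, the receptor that carries enzymes to lysosomes, was at 0.11 and -1.46, Tfe3 at -0.18 ± 0.03, and Tfeb was not detected.

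**Figure D4:**
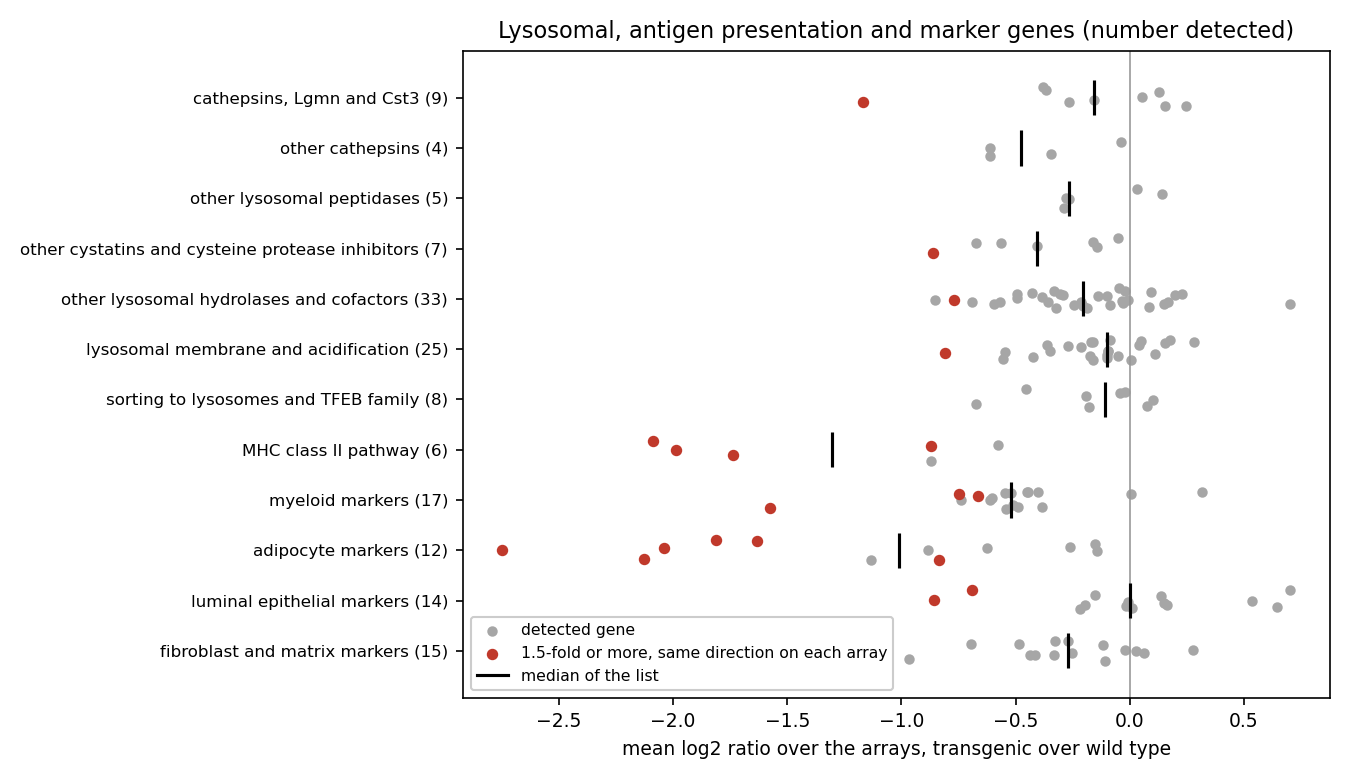
Mean log2 ratio over the arrays (x axis) of each detected gene in the members' list, the other lysosomal lists, the MHC class II pathway and marker lists (rows, with the number detected). Red points passed the 1.5-fold rule and bars are list medians. In the members' row 1 point of 9 is red, Ctss at -1.17, against 4 of 6 in the MHC class II pathway.

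The MHC class II pathway, in which cathepsin S acts, had 4 of 6 detected genes lower in the transgenic pool and 2 that did not pass, beside 1.3% of all detected genes lower. The median was -1.30. Cd74, the invariant chain that cathepsin S cleaves, was at -1.75 and -2.42 (mean -2.09 ± 0.47). H2-Aa was at -2.00 and -1.97 and H2-DMb1, part of the peptide exchange factor of class II, at -0.70 and -1.04. H2-Ab1 was at -2.22 and -1.25 by its brightest probe, where the scanner software gave 0.32 on array 2, and its other probes had means of -1.48 and -1.27. Ciita, the master regulator of class II genes, was not detected.

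Of 24 myeloid markers on the array 17 were detected. By the rule 3 were lower (Lyz1, C1qc and Mrc1), beside 1.3% of all detected genes, and 14 were neither. Means were below 0 for 15 of the 17, beside 59.4% of all detected genes. The median of the 17 was -0.52. The macrophage genes Csf1r (-0.87 and -0.15), Adgre1 (-0.72 and -0.49) and Ptprc of all leukocytes (-0.55 and -0.34) were below 0 on each array without passing the rule, and by scanner ratios 13 of the 17 were lower, beside 6.02% of all detected genes. The count after loess was 1 of 17 with scaling between arrays. Of the 17, 6 were detected in both pools on both arrays, and 1 of these 6 was lower. No share of all genes is given for scaling or for detection in both pools. The summed normalised intensity of the 17 was 3832 to 4279 in the wild-type pool and 2402 to 2854 in the transgenic pool. Itgam, Itgax, Cx3cr1, Spi1, Cybb, Msr1 and Fcgr3 were not detected. Trem2 was above 0 on each array, at 0.15 and 0.48, and by scanner ratios at 0.28 and 0.77. Fcgr1 was at -0.11 and 0.12 after loess, but at -0.65 and -0.72 by scanner ratios, among the 13 lower. The transgenic signal of Fcgr1 was well above background on 1 array only. In RNA from whole tissue, fewer cells of a type and less RNA per cell cannot be told apart, and the part of these cells in the Ctss ratio was not tested.

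Of 12 detected adipocyte markers 6 were lower, beside 1.3% of all detected genes, and the median was -1.01. With detection required in both pools 2 of 6 were lower and the median was -0.57, since Adipoq, Cfd, Car3 and Retn had a transgenic signal well above background on 1 array only. No share of all genes is given for detection in both pools. The summed normalised intensity of the 12 was 11477 to 12014 in the wild-type pool and 4126 to 5187 in the transgenic pool. The part of these markers in the result was not tested. Of 14 detected luminal epithelial markers 2 were lower, Msmb and Hoxb13, beside 1.3% of all detected genes. The median was 0.00, with Krt8 at -0.01 ± 0.19. The 10 basal markers on the array were all detected too, so the labelled tissue's epithelial markers were present. Among 15 fibroblast and 9 smooth muscle markers 0 passed the rule, and Col1a1 and Acta2 were at 0.03 ± 0.39 and 0.36 ± 0.39. Detected were 4 T and NK cell, 3 B and plasma cell and 5 neutrophil and mast cell markers. Of these 1 (Ccl5), 1 (Jchain) and 0 were lower, beside 1.3% of all detected genes. Ceacam10, the 1 of 7 seminal vesicle products that was detected, was also lower. The transgenic signals of Ceacam10, Ccl5 and Jchain were well above background on 1 array only, so the sizes of their differences are uncertain.

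The 5 detected genes whose ratios on the 2 arrays lay nearest to those of Ctss were Hp, Thrsp, H2-Q7, Cidea and Phlda1, at Euclidean distances of 0.02 to 0.23 in log2 units. Hp, the haptoglobin gene, was at -1.09 and -1.23. Thrsp, a gene of lipid synthesis, was at -0.94 and -1.35, and Cidea, of the lipid droplet, at -1.28 and -1.33. H2-Q7, an MHC class I gene with close paralogs, was at -1.18 and -1.41, and Phlda1 at -0.89 and -1.13. With only 2 arrays of the same pools this likeness describes the ratios and nothing more.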

How the data were processed

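Trizol was used for extraction and a low-input kit to label 100 ng of RNA, per the labels' protocols. The deposited Agilent files (version 11.0.1.1 of Feature Extraction in the file headers) give median spot and background intensity in each dye and the scanner software's log10 ratio of Cy5 over Cy3 after its own correction. Medians were used, with normexp (offset 50) and loess in limma 3.58.1 under R 4.3.3, control and outlier spots having weight 0. Signs were turned by dye to give transgenic over wild type. Levels per pool followed loess and Aquantile. The authors' deposited table of log2 ratios has 8533 rows. It equals the scanner ratios in scale and direction (r and slope of 1, median 0 on each array), holds 8 of the 10 members without Ctss and Ctsk, and how its rows were filtered is not known here.

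RefSeq accessions of GRCm38.p6, without versions, named 27816 of 41174 probes. A gene took its brightest detected probe and was called at 1.5-fold with one sign on both arrays. The arrays repeat 1 pair of pools, so there are no p-values, and their number limits the precision. The calling step was checked on simulated data in which both arrays had the same noise and dye settings. These arrays differ in their Cy5 brightness, so the check does not show that calls such as that of Ctss are sound.

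The members and lists were chosen with earlier results of these data known. Named genes are all members, the 5 nearest to Ctss, up to 4 genes of each other list by size of mean ratio, and a few markers of prior interest. Of these only those that a result turns on are printed. Trem2, Fcgr1 and Retn were named after their values were seen. A longer interferon motif that was planned for the promoters is not reported here. Alternatives were an offset of 16, no background subtraction, median centring, scaling between arrays, scanner ratios, the deposited table, the mean over probes, stricter or no detection filters, 2-fold and each array alone. Python 3.11.15, pandas 2.3.3, numpy 2.4.6 and matplotlib 3.10.9 were used.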

Additional observations from a re-analysis of the deposited data

How the results depend on the processing

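The log2 ratio of Ctss was below 0 under all 9 alternatives that gave one, but not all of these could differ. Ctss has 1 probe, so the mean over probes and the lack of a detection filter leave it at -1.17. The single arrays, at -1.25 to -1.08, are the values behind the call. The Ctss ratio was -1.42 with an offset of 16, -1.90 by scanner ratios and -1.80 with median centring. Ctss is absent where detection in both pools was required and from the rows used of the deposited table. By scanner ratios and with median centring 2 members (Ctss and Lgmn) were called lower, beside 6.02% and 5.31% of all detected genes. The count called lower was 0 with detection in both pools, 1 (Lgmn in place of Ctss) in the deposited table, and 2 to 4 on single arrays. The count called higher was 1 on each single array (Ctsd on array 1, Cst3 on array 2) and 0 otherwise. No share of all genes is given for the deposited table, detection in both pools or single arrays. The counts under these settings are therefore not a result about the members. The contrast of Ctss with the broad cathepsins was -1.75 by scanner ratios and -1.38 to -0.50 on single arrays. The median over members was -1.01 with median centring, and -0.46 to -0.01 on single arrays. Where a value moved and no sample or gene was left out, the cause was not tested. Each log2 ratio already pairs the pools within an array. Each genotype is 1 pool, so there was no replication of genotype to test. The dim Cy5 signal of array 2 limits ratios of probes near background, Ctss among them.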
